A study of Mus musculus with 18 samples.

Results

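The collagen family was followed through the nuclear and cytoplasmic RNA of mouse myofibers. Its members were all non-control probes whose gene symbol on the array had the form Col, a type number, the letter a and a chain number. That rule found 72 spots, which held 63 probes for 41 genes, among 59305 spots, 55681 probe names and 35527 gene names on the array. By the class of their protein, 11 of the 41 genes code for fibrillar collagen chains, 8 for chains of the basement membrane collagens and 22 for other collagens. The description of each of the 63 probes also named a collagen, and no probe carried the symbols Col6a3, Col6a5, Col21a1 or Col26a1. Of these genes, 26 had a single probe and 15 had up to 4, and the probe with the highest mean over all arrays stood for its gene.

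The RNA came from wild-type CD1 female mice of 3 months of age, with no treatment. Each sample was a pool of 5 to 10 myofibers freed with collagenase from the extensor digitorum longus (EDL, a fast muscle), the soleus (a slower muscle) or the tibialis anterior (TA, a fast muscle). The fibers were lysed in a buffer with Triton, the nuclei were pelleted, and the supernatant was kept as cytoplasm, so that the 6 groups of muscle and fraction had 3 samples each. Every sample was hybridised to a 1-colour array, and signals are given as log2 of the quantile-normalized intensity. The EDL and soleus samples with 1 replicate number came from the same pair of mice in both fractions. Mice were shared between some TA samples too, and some TA samples shared mice with EDL and soleus samples. The p-values rest on the spread between arrays of a group, pooled over the 6 groups. The SD of Col4a1 between nuclear arrays was 0.04 to 0.07, beside 0.05 to 0.09 between spots of an array. Whether the nuclear arrays carry the spread between pools was not tested. All EDL and soleus cytoplasm and TA cytoplasm 1 lay on 1 slide, all EDL and soleus nuclei on another, TA cytoplasm 3 on a slide apart, and TA cytoplasm 2 with the 3 TA nuclei on the last. In EDL and soleus the fraction and the slide cannot be told apart. The second soleus cytoplasm sample stood apart from the other cytoplasmic samples, towards nuclei, and TA cytoplasm 1 differed from TA cytoplasm 2 and 3.

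Collagens are trimeric proteins wound from alpha chains, each chain the product of its own gene. Fibrillar collagens such as types I, III and V form the banded fibrils of tendon and of the sheaths around fibers, type IV forms the network of the basement membrane that wraps each myofiber and each capillary, and smaller families bind to fibril surfaces or span the cell membrane. In muscle, interstitial fibroblasts are the best known source of fibrillar chains, and a pool of dissociated fibers can carry some of these cells along. Fewer cells of a type and less RNA per cell cannot be told apart in such pools.

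Most collagen genes gave signal. The chosen probe of 26 genes was well above background on all 18 arrays, that of 12 genes on some arrays, and that of 3 genes on none. The latter were Col24a1, a fibrillar chain, Col17a1, a transmembrane collagen of hemidesmosomes, and Col9a3, a chain of the cartilage collagen IX. By the rule of 3 of 3 arrays, more collagens were well above background in nuclei than in cytoplasm of EDL and soleus. In EDL, 30 of the 41 genes were well above background on all 3 cytoplasmic arrays and 35 on all 3 nuclear arrays. In soleus, 31 genes passed in cytoplasm and 36 in nuclei, and in TA the counts were 28 and 29. The same measure over genes with mRNA accessions was 65.7% in EDL cytoplasm and 69.3% in EDL nuclei, 62.3% and 70.8% in soleus, and 65.3% and 66.6% in TA. By the rule of 3 of 3 arrays, fibrillar genes went from 8 of 11 in EDL cytoplasm to 10 in EDL nuclei. Their soleus counts were 9 and 10, and their TA counts 6 and 7. The basement membrane genes were at 6 or 7 of 8 in each of the 6 groups. Where 2 of 3 arrays were enough, the TA order turned. Then 31 collagens passed in TA cytoplasm and 29 in TA nuclei, of which 8 and 7 were fibrillar. Fibrillar genes of soleus stood at 10 in both fractions. Soleus still had more collagens in nuclei (34 and 36), as did EDL (33 and 36). With 1 of 3 arrays, mRNA genes passed more often in cytoplasm of each muscle. Their shares were 79.3% and 73.9% for TA, 77.2% and 76.7% for soleus, and 77.2% and 75.7% for EDL.

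**Figure D1:**
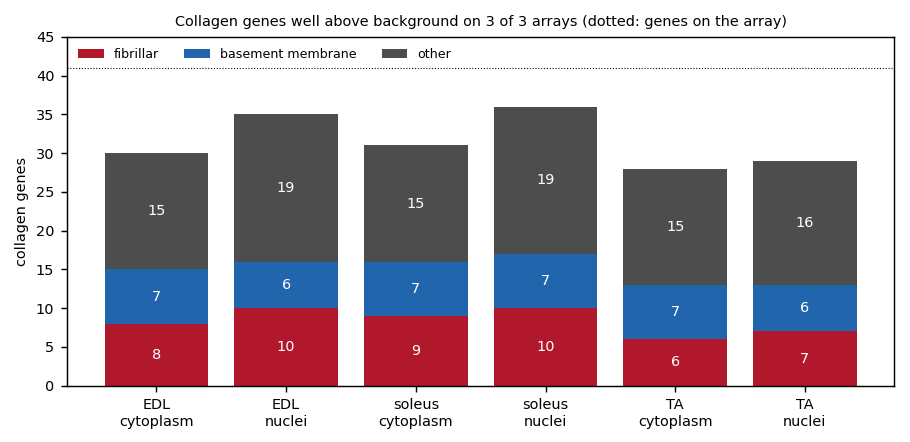
Number of collagen genes whose chosen probe was well above background on 3 of 3 arrays (y axis), with a bar for each of the 6 groups split into fibrillar, basement membrane and other collagens and a dotted line at the 41 genes on the array. Bars reach 30 in EDL cytoplasm and 35 in EDL nuclei, 31 and 36 in soleus, and 28 and 29 in TA.

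In EDL, 15 of the 36 collagen genes with enough values had higher signal in nuclei than in cytoplasm, and 4 had lower signal (adjusted p under 0.05, limma with Benjamini-Hochberg adjustment over all probes). The share of all genes with mRNA accessions that passed was 44.2%, of which 24% were higher and 20.2% lower. Their median difference was 0.17 (log2, nuclei minus cytoplasm), and that of the collagens was 0.56. In soleus, 14 of 36 collagens were higher and 4 were lower, with a median of 0.52, beside a background of 38.1% called, 21.6% higher and 16.5% lower, and a median over mRNA genes of 0.17. In TA, 12 of 35 collagens were higher and 10 lower, with a median of 0.18, and the background was 49.7%, with 25.1% higher, 24.6% lower and a median of 0.14. Over the 3 muscles together, 19 of 34 collagens were higher and 9 lower, with a median of 0.58, where 68.5% of mRNA genes were called, 39.3% higher and 29.2% lower, with a median of 0.19. In either direction the calls were 19 of 36 in EDL, 18 of 36 in soleus, 22 of 35 in TA and 28 of 34 over the muscles, and the excess over the background was not tested. Without scaling between arrays the median over mRNA genes moved to 0.65 in EDL, 1.21 in soleus, 0.31 in TA and 0.77 over the muscles, and the collagen calls were then 22 higher and 2 lower, 31 and 0, 16 and 8, and 23 and 4. With scaling to the 75th percentile the soleus calls were 12 higher and 7 lower.

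The classes were placed differently along this scale. Fibrillar genes had the highest median of the 3 classes in each muscle, 0.98 in EDL, 0.85 in soleus and 0.77 in TA, and 5 of 10, 5 of 10 and 4 of 9 tested were higher in nuclei. No fibrillar gene was lower in EDL or soleus, and 2 were lower in TA. Basement membrane genes had medians of 0.42, 0.18 and 0.22, with 2 higher and 1 lower of 7 in EDL, 1 and 1 of 7 in soleus and 4 and 2 of 8 in TA. The type IV chains alone, of which 5 were tested in EDL and soleus and 6 in TA, had medians of -0.22, -0.26 and -0.37. Between replicate arrays, the median level of a class had an SD of 0.53 for fibrillar, 0.16 for basement membrane and 0.23 for other genes (log2). The order of the classes was not tested, and it was less firm in TA. Its fibrillar median was 0.25 without TA cytoplasm 1 and 0.15 on slide 4 alone. Its basement membrane median was 0.69 to 0.88 under stricter or no filters and with every probe counted, and it was above the fibrillar median where spots well above background or values on 3 of 3 arrays were required. The other collagens were mixed, with 8 higher and 3 lower of 19 in both EDL and soleus and 4 higher and 6 lower of 18 in TA, and medians of 0.31, 0.44 and -0.45. A pair of settings took many of these calls away. With the slide as a random block the calls fell to 6 in EDL, 2 in soleus, 17 in TA and 16 over the 3 muscles, and with the 3 nuclear arrays of a muscle averaged to 1 sample they were 2, 0, 2 and 16. Under the slide block the EDL calls were Col1a1, Col2a1, Col6a2, Col22a1, Col9a1 and Col8a2, and the soleus calls Col22a1 and Col8a2. The normexp correction moved many dim genes by over 1.5 times, for instance Col2a1 to 1.24, Col11a1 to 0.63 and Col12a1 to 0.54 in EDL, each with its call.

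**Figure D2:**
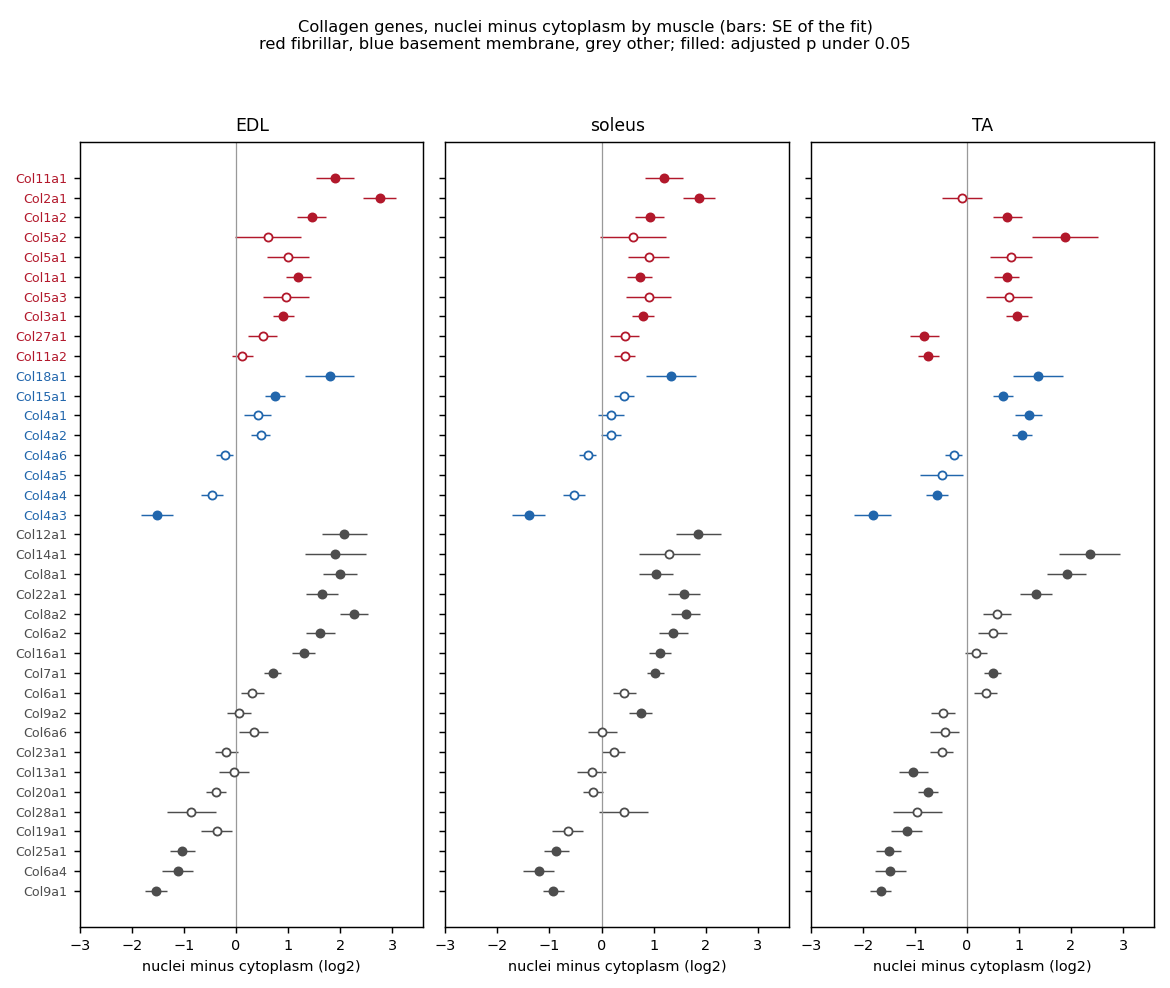
Difference in signal between nuclei and cytoplasm (log2, nuclei minus cytoplasm) for each collagen gene in EDL, soleus and TA, with tested genes in rows by class, points for the estimate, bars for the SE and filled points for an adjusted p under 0.05. Fibrillar genes lie mostly to the right of 0, whereas the type IV chains lie on both sides, from -1.81 for Col4a3 in TA to 1.19 for Col4a1 in TA.

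Type I collagen, the main fibril protein of tendon and connective tissue, is built from the chains of Col1a1 and Col1a2. Col1a1 signal in EDL cytoplasm was 12.72, 12.56 and 12.92, and in EDL nuclei 13.94, 13.94 and 13.90. In soleus it was 12.89, 13.22 and 12.90 in cytoplasm and 13.83, 13.66 and 13.72 in nuclei. In TA it was 11.30, 10.85 and 10.09 in cytoplasm and 11.46, 11.64 and 11.42 in nuclei. Each nuclear value of a muscle was above each cytoplasmic value of that muscle, and all TA values were below all values of the other two muscles. The differences were 1.20 ± 0.24 (log2, SE, n = 3 per fraction, adjusted p by limma 0.000892) in EDL, 0.74 ± 0.24 (adjusted p by limma 0.023) in soleus and 0.76 ± 0.24 (adjusted p by limma 0.0143) in TA. The soleus call was lost on leaving out soleus cytoplasm 1 or 3 or soleus nuclei 1 or 3, and the TA difference was 0.43 without TA cytoplasm 3, with the call lost there and without TA nuclei 2.

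Col1a2 had the same order of fractions in each muscle. Its signal was 13.51, 13.47 and 13.81 in EDL cytoplasm and 15.05, 15.03 and 15.05 in EDL nuclei, a difference of 1.45 ± 0.28 (adjusted p by limma 0.000628). In soleus the cytoplasm had 13.91, 14.35 and 13.85 and the nuclei 14.93, 14.96 and 15.00, a difference of 0.93 ± 0.28 (adjusted p by limma 0.0152). The fractions of both muscles did not overlap. In TA the values were 12.77, 14.17 and 13.92 in cytoplasm and 14.48, 14.47 and 14.23 in nuclei. There the first cytoplasmic sample was far below the others, and the difference of 0.77 ± 0.28 (adjusted p by limma 0.0282) fell to 0.35 without it, with the call lost. The soleus call was lost without soleus cytoplasm 3, and the TA call also without TA nuclei 1 or 2.

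Col3a1 codes for the chain of type III collagen, which shares thin fibrils with type I in the muscle sheaths. It had 12.34, 12.28 and 12.66 in EDL cytoplasm and 13.40, 13.36 and 13.25 in EDL nuclei, 12.52, 12.95 and 12.35 in soleus cytoplasm and 13.32, 13.41 and 13.46 in soleus nuclei, and 12.65, 12.53 and 11.92 in TA cytoplasm and 13.41, 13.32 and 13.27 in TA nuclei. In all 3 muscles the nuclear values lay above the cytoplasmic ones, and the nuclear levels of the 3 muscles fell within the same narrow range. The differences were 0.91 ± 0.21 in EDL (adjusted p by limma 0.00231), 0.79 ± 0.21 in soleus (adjusted p by limma 0.00692) and 0.96 ± 0.21 in TA (adjusted p by limma 0.00122). Scaling to the 75th percentile in place of quantiles moved the soleus differences of Col1a1, Col1a2 and Col3a1 to 0.20, 0.24 and 0.34, each without a call.

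The upstream sequences of 2 of these genes are shown because both were higher in nuclei in all 3 muscles and hold different motifs. The windows run from 250 bases before to 50 after the RefSeq start on GRCm38.p6, and were available for 33 of the 41 genes. Col3a1 lies at chr1:45311288-45311587 on the plus strand and Col1a2 at chr6:4505368-4505667 on the plus strand. The motifs searched were the CCAAT box, the TATA box in the form TATAAA, and the GC box in the form GGGCGG. Capitals mark their matches on either strand. No match overlaps another in these windows.
Col3a1: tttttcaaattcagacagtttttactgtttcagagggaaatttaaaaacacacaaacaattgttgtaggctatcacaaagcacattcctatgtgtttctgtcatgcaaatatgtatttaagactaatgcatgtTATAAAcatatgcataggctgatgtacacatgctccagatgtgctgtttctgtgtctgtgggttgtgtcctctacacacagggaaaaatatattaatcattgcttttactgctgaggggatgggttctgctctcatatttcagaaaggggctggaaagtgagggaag
Col1a2: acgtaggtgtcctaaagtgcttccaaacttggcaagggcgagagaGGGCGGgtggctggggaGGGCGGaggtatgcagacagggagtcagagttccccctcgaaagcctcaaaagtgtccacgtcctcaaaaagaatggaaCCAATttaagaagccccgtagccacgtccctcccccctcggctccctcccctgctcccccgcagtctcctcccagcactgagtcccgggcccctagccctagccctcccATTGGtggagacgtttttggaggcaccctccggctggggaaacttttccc
The Col3a1 window held 1 TATAAA, at position -117 from the start, and neither of the other motifs. The Col1a2 window held 2 CCAAT and 2 GGGCGG matches and no TATAAA. Of the 36 promoter entries of collagen genes, 13 (36.1%) held CCAAT, 5 (13.9%) TATAAA and 22 (61.1%) GGGCGG. The shares over all 32841 promoters of the same length were 37.4%, 13.6% and 35.7%. These letters are a description of the windows and name no bound factor.

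Type V collagen joins type I in mixed fibrils and is known to set their diameter. Its 3 genes were all higher in nuclei over the 3 muscles, with 0.91 ± 0.23 for Col5a1, 1.03 ± 0.37 for Col5a2 and 0.89 ± 0.25 for Col5a3, but within muscles they passed only for Col5a2 in TA. With the slide as a random block the values over the 3 muscles were 0.31, 1.32 and 0.21, all without a call. In EDL, Col5a1 differed by 1.00 ± 0.40 (adjusted p by limma 0.0517) and Col5a3 by 0.96 ± 0.44 (adjusted p by limma 0.0819). Col5a2 signal in TA was 5.49, 5.09 and 2.11 in cytoplasm and 5.98, 6.27 and 6.07 in nuclei. The third cytoplasmic sample carried much of the difference of 1.88 ± 0.63 (adjusted p by limma 0.0212), which was 0.82 without it and no longer called.

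Col2a1, the chain of cartilage collagen, was the fibrillar gene with the largest difference in EDL and soleus. Its signal was 4.20, 4.16 and 4.99 in EDL cytoplasm and 7.11, 7.30 and 7.22 in EDL nuclei, a difference of 2.76 ± 0.31 (adjusted p by limma 1.75e-05). In soleus the values were 5.22, 5.93 and 5.02 in cytoplasm and 7.47, 7.21 and 7.12 in nuclei, a difference of 1.88 ± 0.31 (adjusted p by limma 0.000454). In TA the probe was not well above background on any array of either fraction, so no fold is given there. It was the 1 collagen of 34 tested whose difference varied with the muscle in the test of the interaction (adjusted p by limma 0.0282), where 1.27% of mRNA genes passed. The TA term of that test came from 4 values near background, 2.55 and 3.34 in cytoplasm and 2.49 and 3.20 in nuclei, so a different size of the difference in TA is not shown by it. That call was lost on leaving out any 1 of the 6 EDL and soleus nuclear arrays, with adjusted p up to 0.0654 by limma.

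The remaining fibrillar chains are known mainly from cartilage. Col11a1 was not well above background in EDL cytoplasm. By the fit it was 3.74-fold higher in EDL nuclei (mean log2 signal 3.93 in cytoplasm and 5.83 in nuclei, adjusted p by limma 0.00144). That fold is not a lower bound, since the difference was smaller under normexp. In soleus it differed by 1.20 ± 0.37 (adjusted p by limma 0.0224), a call lost on leaving out soleus cytoplasm 1 or 3 or any soleus nuclear array, and in TA neither fraction had it well above background. Col11a2 went the other way in TA, with -0.74 ± 0.20 (adjusted p by limma 0.00582), and had 0.12 in EDL and 0.45 in soleus without a call. Col27a1 was not well above background in TA nuclei, where by the fit it was 1.77-fold lower than in cytoplasm (adjusted p by limma 0.0224). It did not pass in EDL (0.51) or soleus (0.45). The TA difference of -0.82 was -0.44 without TA cytoplasm 1, -0.17 under normexp and -0.46 with dim spots kept, each without a call.

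**Figure D3:**
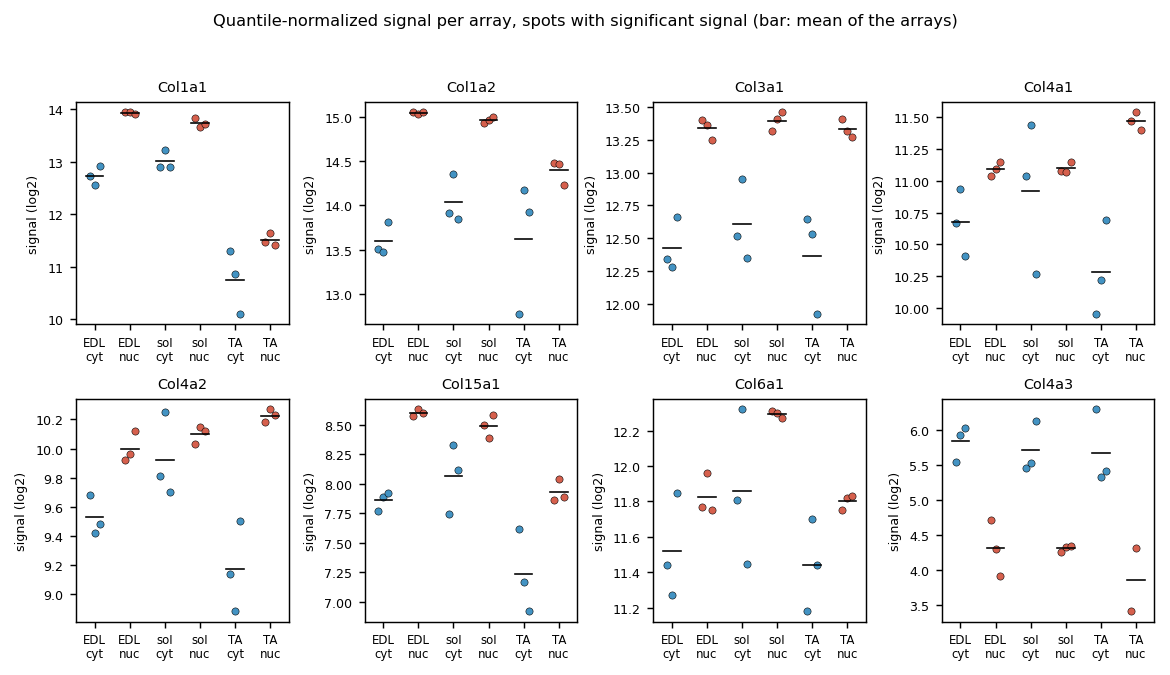
Quantile-normalized signal (log2) on each array in the cytoplasm (blue) and nuclei (red) of EDL, soleus and TA for Col1a1, Col1a2, Col3a1, Col4a1, Col4a2, Col15a1, Col6a1 and Col4a3, with a bar at the mean of the arrays and a separate axis for each gene. Col1a1 and Col3a1 have all nuclear values above the cytoplasmic values of the same muscle, Col6a1 overlaps in EDL and soleus, and Col4a3 lies lower in nuclei in all 3 muscles.

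Col4a1 and Col4a2 code for the chains of the ubiquitous type IV network around myofibers and capillaries. Col4a1 signal was 10.67, 10.94 and 10.41 in EDL cytoplasm and 11.04, 11.09 and 11.15 in EDL nuclei, and 11.04, 11.44 and 10.27 in soleus cytoplasm and 11.08, 11.07 and 11.15 in soleus nuclei. The EDL difference was 0.42 ± 0.26 (adjusted p by limma 0.194) and the soleus difference 0.18 ± 0.26 (adjusted p by limma 0.601), with overlap in soleus. In TA the values were 9.95, 10.22 and 10.69 in cytoplasm and 11.47, 11.54 and 11.40 in nuclei, a difference of 1.19 ± 0.26 (adjusted p by limma 0.00136). The Col4a1 probe was spotted 10 times, and its median SD between spots of an array was 0.05 to 0.09 (log2) in the 6 groups. Between arrays its SD was 0.04 to 0.07 in nuclei and 0.26 to 0.59 in cytoplasm.

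Col4a2 ran beside Col4a1 in each muscle. It had 9.68, 9.42 and 9.48 in EDL cytoplasm and 9.92, 9.96 and 10.12 in EDL nuclei, a difference of 0.47 ± 0.19 just short of the threshold (adjusted p by limma 0.0503). In soleus the cytoplasm had 9.81, 10.25 and 9.70 and the nuclei 10.03, 10.15 and 10.12, and the fractions overlapped (0.18 ± 0.19, adjusted p by limma 0.465). In TA the values of 9.14, 8.88 and 9.50 in cytoplasm all lay below the 10.18, 10.27 and 10.23 in nuclei, by 1.06 ± 0.19 (adjusted p by limma 0.000299). The interaction test did not call either gene, so the difference between muscles was not shown.

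These genes are neighbours that run in opposite directions from a shared start region, for which reason both windows are printed. On GRCm38.p6 the window of Col4a1 is chr8:11312777-11313076 on the minus strand and that of Col4a2 is chr8:11312555-11312854 on the plus strand. Their RefSeq starts lie 21 bases apart and the windows share 78 bases. Capitals again mark matches of the same motifs on either strand.
Col4a1: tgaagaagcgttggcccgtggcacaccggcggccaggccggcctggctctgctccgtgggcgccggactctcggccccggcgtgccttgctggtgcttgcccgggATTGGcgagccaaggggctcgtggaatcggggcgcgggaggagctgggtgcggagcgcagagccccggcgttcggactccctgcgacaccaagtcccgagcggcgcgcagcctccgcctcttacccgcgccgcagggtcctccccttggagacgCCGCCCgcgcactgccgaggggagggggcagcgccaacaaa
Col4a2: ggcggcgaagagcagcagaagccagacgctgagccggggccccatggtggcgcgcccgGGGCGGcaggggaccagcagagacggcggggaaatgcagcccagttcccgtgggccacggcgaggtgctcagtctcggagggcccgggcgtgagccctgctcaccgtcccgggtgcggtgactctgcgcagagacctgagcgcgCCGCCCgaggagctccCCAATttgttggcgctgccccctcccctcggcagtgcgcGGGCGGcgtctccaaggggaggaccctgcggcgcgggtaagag
The Col4a1 window held 1 CCAAT and 1 GGGCGG match, the Col4a2 window 1 CCAAT and 3 GGGCGG matches, and neither held TATAAA. The stretch they share holds 1 of the GGGCGG matches.

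The other type IV chains replace Col4a1 and Col4a2 in the basement membranes of kidney, lung and some other organs. Col4a3 signal was 5.54, 5.93 and 6.03 in EDL cytoplasm and 4.71, 4.30 and 3.92 in EDL nuclei. In soleus it was 5.46, 5.53 and 6.13 in cytoplasm and 4.25, 4.33 and 4.34 in nuclei, and in TA 6.29, 5.32 and 5.41 in cytoplasm and 3.41 and 4.31 in nuclei, where the third nuclear array had no significant signal. No nuclear value reached a cytoplasmic one. The differences were -1.52 ± 0.31 in EDL (adjusted p by limma 0.00131), -1.40 ± 0.31 in soleus (adjusted p by limma 0.00296) and -1.81 ± 0.35 in TA (adjusted p by limma 0.00066). Col4a4 had -0.46 in EDL, -0.53 in soleus and -0.58 in TA and passed in TA alone (adjusted p by limma 0.0323). That call was lost on leaving out any of 4 TA arrays, with dim spots kept, with scaling to the 75th percentile (-0.37) and without scaling (-0.28). Col4a6 had -0.22, -0.26 and -0.26 and passed only over the 3 muscles (-0.25 ± 0.10, adjusted p by limma 0.0307), a call lost on leaving out any of 7 arrays, and without scaling the value turned to 0.26. Over the 3 muscles Col4a4 had -0.52, which turned to 0.19 without scaling. Col4a5 was well above background on 2 arrays and had -0.49 in TA without a call. It had signal on all 3 soleus nuclear arrays (3.83, 3.49 and 3.76) and on 1 soleus cytoplasmic array (2.41), too few to be tested.

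Col15a1 and Col18a1 code for the multiplexin collagens of the zone between basement membrane and fibrils, and Col18a1 is the source of endostatin. Col15a1 had 7.77, 7.89 and 7.92 in EDL cytoplasm against 8.57, 8.63 and 8.60 in EDL nuclei, 7.74, 8.33 and 8.12 against 8.50, 8.39 and 8.58 in soleus, and 7.62, 7.17 and 6.92 against 7.86, 8.04 and 7.89 in TA. The fractions were separate in all 3 muscles. The difference passed in EDL (0.74 ± 0.19, adjusted p by limma 0.00569) and TA (0.69 ± 0.19, adjusted p by limma 0.00745) and missed in soleus (0.43 ± 0.19, adjusted p by limma 0.0918). Col18a1 was higher in nuclei by 1.80 ± 0.48 in EDL (adjusted p by limma 0.00647), 1.34 ± 0.48 in soleus (adjusted p by limma 0.0359) and 1.36 ± 0.48 in TA (adjusted p by limma 0.0257). With the slide as a random block these values were 0.98, 0.53 and 0.82, and that over the 3 muscles 0.77, none of them called. Without TA cytoplasm 1 the TA value was 0.59 and was not called, and the soleus call was lost on leaving out any of 5 soleus arrays.

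Type VI collagen forms the beaded filaments that tie the myofiber basement membrane to the matrix around it. Col6a1 signal was 11.44, 11.27 and 11.85 in EDL cytoplasm and 11.77, 11.96 and 11.75 in EDL nuclei, 11.81, 12.32 and 11.45 in soleus cytoplasm and 12.31, 12.30 and 12.27 in soleus nuclei, and 11.18, 11.70 and 11.44 in TA cytoplasm and 11.75, 11.82 and 11.83 in TA nuclei. The differences of 0.31, 0.44 and 0.36 did not pass in single muscles and passed over the 3 muscles (0.37 ± 0.13, adjusted p by limma 0.017). Col6a2, whose product joins that of Col6a1 in the same trimer, was higher in nuclei by 1.62 ± 0.28 in EDL (adjusted p by limma 0.00029) and 1.37 ± 0.28 in soleus (adjusted p by limma 0.00132). Its TA value was 0.50 ± 0.28 (adjusted p by limma 0.146).

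Col6a4 codes for a chain related to the long chain of that trimer and lay on the cytoplasmic side. It had 6.51, 6.65 and 7.04 in EDL cytoplasm and 5.55, 5.71 and 5.56 in EDL nuclei, and 6.94, 6.26 and 6.70 in soleus cytoplasm and 5.38, 5.32 and 5.59 in soleus nuclei. In TA it had 7.40, 6.51 and 5.88 in cytoplasm and 5.19, 5.02 and 5.17 in nuclei. All nuclear values were below the cytoplasmic ones of their muscle, with differences of -1.12 in EDL, -1.20 in soleus and -1.47 in TA on the log2 scale (adjusted p by limma 0.00607, 0.00484 and 0.000764). Without scaling between arrays the EDL value was -0.70 and the soleus value -0.19, both without a call. Col6a6 did not pass in any muscle, with 0.34, 0.01 and -0.43.

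Collagens that sit on fibril surfaces went both ways. Col12a1 and Col14a1, which are known from tendon and muscle sheaths, and Col22a1, a collagen of the junction between muscle and tendon, were higher in nuclei. Col12a1 had 3.23, 3.49 and 3.87 in EDL cytoplasm, where no array was well above background, and 5.72, 5.49 and 5.62 in EDL nuclei. The fitted difference was 4.23-fold (adjusted p by limma 0.0016) and is not a lower bound. In soleus it had 4.43, 6.15 and 3.89 in cytoplasm and 6.83, 6.60 and 6.59 in nuclei, a difference of 1.85 ± 0.43 (adjusted p by limma 0.00422). The second soleus cytoplasm sample was the closest to the nuclear values. In TA no array of either fraction had it well above background.

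Col14a1 was the collagen with the largest fitted difference in TA. Its TA signal was 4.84, 4.03 and 2.84 in cytoplasm and 6.11, 6.25 and 6.42 in nuclei, a difference of 2.36 ± 0.58 (adjusted p by limma 0.00333). In EDL the cytoplasm had 4.09, 4.97 and 5.13 and the nuclei 6.89, 6.59 and 6.43, by 1.91 ± 0.58 (adjusted p by limma 0.0145), and leaving out EDL cytoplasm 1 gave 1.59 without a call. In soleus the cytoplasm of 6.40, 7.37 and 4.39 was spread too widely for a call (1.30 ± 0.58, adjusted p by limma 0.0864). A second Col14a1 probe showed no such difference over the 3 muscles (-0.08, not called), so the result rests on 1 probe. Col22a1 was higher in the nuclei of all 3 muscles, by 1.65 ± 0.31 in EDL (adjusted p by limma 0.000524), 1.59 ± 0.31 in soleus (adjusted p by limma 0.000957) and 1.33 ± 0.31 in TA (adjusted p by limma 0.00202).

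Col9a1, a chain of the cartilage collagen IX, was lower in the nuclei of all 3 muscles, except that the soleus value turned to 0.16 without scaling between arrays. It had 7.12, 7.38 and 7.27 in EDL cytoplasm and 5.65, 5.88 and 5.64 in EDL nuclei (-1.53 ± 0.21, adjusted p by limma 4.02e-05), 7.10, 6.31 and 7.22 against 5.89, 6.01 and 5.96 in soleus (-0.92 ± 0.21, adjusted p by limma 0.00274), and 7.47, 7.32 and 7.23 against 5.58, 5.74 and 5.72 in TA (-1.66 ± 0.21, adjusted p by limma 1.99e-05). The fractions did not overlap in any muscle. Col9a2, its partner chain, was higher in soleus nuclei (0.75 ± 0.23, adjusted p by limma 0.0163, call lost without soleus cytoplasm 2) and did not pass in EDL (0.06) or TA (-0.46). Col16a1 was higher in EDL (1.30) and soleus (1.12) and had 0.18 in TA without a call. Col19a1, a minor collagen of basement membrane zones, was lower in TA (-1.16) and did not pass in EDL (-0.37) or soleus (-0.65). Col20a1 was lower in TA (-0.74) and did not pass in EDL (-0.39) or soleus (-0.17). Over the 3 muscles, 3 of 7 fibril-associated genes were higher and 3 were lower, beside 39.3% and 29.2% of mRNA genes, and of the latter Col20a1 (-0.43) turned to 0.25 without scaling.

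Type VIII collagen forms short-chain networks around vessels. Col8a2 had 7.91, 6.95 and 7.63 in EDL cytoplasm and 9.73, 9.79 and 9.76 in EDL nuclei (2.27 ± 0.27, adjusted p by limma 1.51e-05), and 8.83, 8.88 and 8.97 in soleus cytoplasm and 10.52, 10.48 and 10.54 in soleus nuclei (1.62 ± 0.27, adjusted p by limma 0.000343). Its TA difference was 0.57 ± 0.27 and did not pass. Col8a1 had 4.72, 4.02 and 4.31 in EDL cytoplasm and 6.29, 6.33 and 6.41 in EDL nuclei (2.00 ± 0.33, adjusted p by limma 0.000287), and it was also higher in soleus nuclei (1.05 ± 0.33, adjusted p by limma 0.0228). The soleus value was 0.56 without soleus cytoplasm 3, and the call was lost there, without soleus nuclei 1 or 3, and with dim spots kept. In TA it had no significant signal on the first cytoplasmic array and 3.49 and 3.72 on the others, not well above background, and 5.48, 5.68 and 5.40 in nuclei. By the fit, nuclei were 3.76-fold higher than the cytoplasmic arrays with signal (adjusted p by limma 0.000731, first cytoplasmic array left out of the fit). Col10a1, a chain of growth cartilage, was well above background on 1 array of TA cytoplasm and was not tested. Col7a1, the anchoring fibril collagen, was higher in the nuclei of EDL (0.71), soleus (1.03) and TA (0.49), each past the threshold, and the TA call was lost without TA cytoplasm 1 or TA nuclei 1 or 2.

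Transmembrane collagens gave no call towards nuclei in any muscle, except that Col13a1 passed in soleus (0.67) without scaling between arrays. Col25a1 codes for a transmembrane collagen known from motor innervation. Its soleus value turned to 0.31 without scaling. It had 7.89, 8.56 and 8.74 in EDL cytoplasm against 7.49, 7.34 and 7.26 in nuclei (-1.03 ± 0.24, adjusted p by limma 0.00265), and 7.83, 8.11 and 8.05 against 7.05, 7.16 and 7.17 in soleus (-0.87 ± 0.24, adjusted p by limma 0.00942). In TA it had 9.29, 8.70 and 8.46 in cytoplasm and 7.08, 7.35 and 7.50 in nuclei (-1.50 ± 0.24, adjusted p by limma 0.000127). Col13a1, a transmembrane collagen of the neuromuscular junction, was lower in TA nuclei (-1.03 ± 0.28, adjusted p by limma 0.00617) and had -0.04 in EDL and -0.19 in soleus without a call. Col23a1 passed in no muscle with its chosen probe, and Col28a1, a minor collagen known from peripheral nerve, passed in none either.

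**Figure D4:**
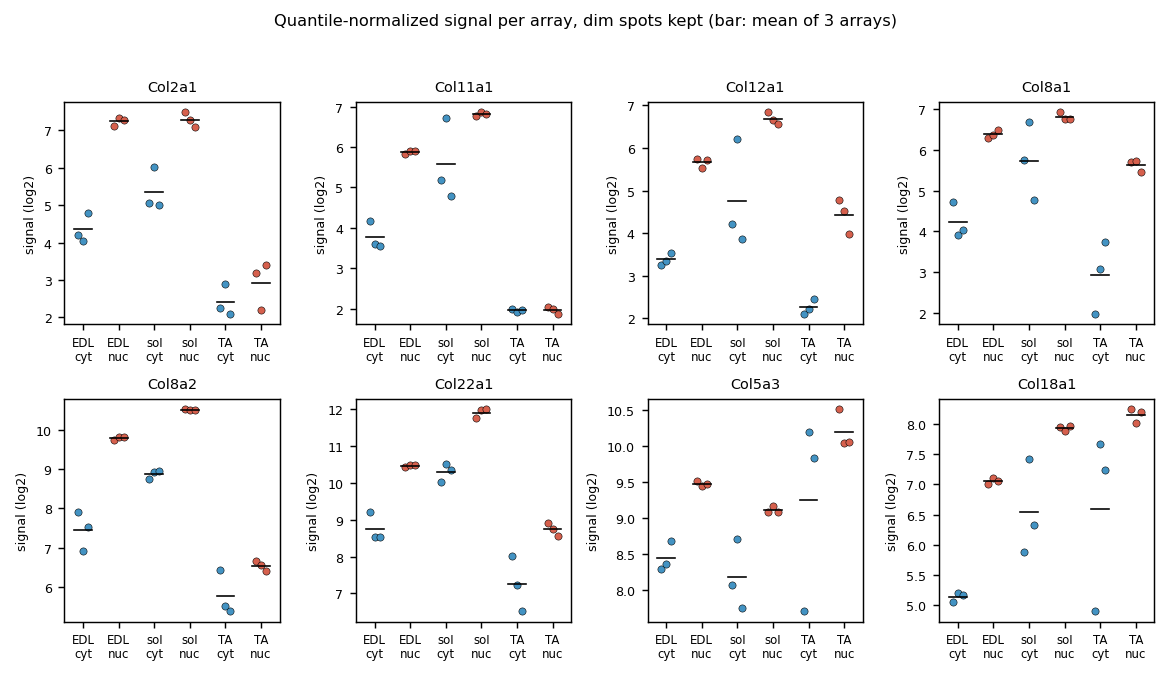
Quantile-normalized signal (log2) on each array, with dim spots kept, in the cytoplasm (blue) and nuclei (red) of EDL, soleus and TA for Col2a1, Col11a1, Col12a1, Col8a1, Col8a2, Col22a1, Col5a3 and Col18a1, with a bar at the mean of 3 arrays and a separate axis for each gene. The TA values of Col2a1, Col11a1, Col12a1, Col8a1, Col8a2 and Col22a1 lie below the EDL and soleus values of the same fraction, and the values near 2 were not well above background.

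Between soleus and EDL few collagens passed the threshold, and within a fraction these samples shared a slide. A missing call does not show equal levels, since the spread was pooled over all 6 groups. Col8a2 had 9.73 to 9.79 in EDL nuclei and 10.48 to 10.54 in soleus nuclei, without a call. Col1a1 nuclei lay apart in the other direction, with 13.90 to 13.94 in EDL and 13.66 to 13.83 in soleus, also without a call. In nuclear RNA 1 of 37 tested collagens passed, where 2.11% of mRNA genes did. This was Col22a1, with 10.42, 10.48 and 10.44 in EDL nuclei and 11.74, 11.93 and 12.01 in soleus nuclei, a difference of 1.45 ± 0.31 (adjusted p by limma 0.0249). Leaving out any 1 of these 6 arrays gave 1.39 to 1.53, without a call. In cytoplasmic RNA 2 of 36 passed, beside 2.02% of mRNA genes. Col22a1 was 9.21, 8.57 and 8.61 in EDL and 10.10, 10.47 and 10.35 in soleus (1.51 ± 0.31, adjusted p by limma 0.0225), and Col8a2 was higher in soleus by 1.40 ± 0.27 (adjusted p by limma 0.0177). The Col22a1 call was lost without EDL cytoplasm 2 or 3 or soleus cytoplasm 2, and the Col8a2 call without EDL cytoplasm 2 or soleus cytoplasm 2. Col11a1 (3.21-fold higher in soleus by the fit, adjusted p by limma 0.0507) and Col8a1 (1.42 ± 0.33, adjusted p by limma 0.0532) stood just outside.

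TA arrays were compared with the other muscles as levels only, with dim spots kept and with no test, since slides differed for most of them. Among the 38 collagens well above background on at least 1 array, 17 had all 3 TA nuclei below all 6 EDL and soleus nuclei and 7 had them above. Over mRNA genes these shares were 24.9% and 25.4%. In both fractions 9 collagens were lower in TA on every array, and the share over mRNA genes was 8.37%. They were Col1a1, Col2a1, Col11a1, Col15a1, Col6a2, Col12a1, Col22a1, Col8a1 and Col8a2, named after their values were seen. Of these, Col2a1, Col11a1 and Col12a1 were not well above background on any TA array. They entered the 38 only through EDL and soleus, so the filter largely set their place below. The mRNA genes passed the same filter. For Col8a2 the TA nuclei spanned 6.41 to 6.65 and the EDL and soleus nuclei 9.74 to 10.53. The choice of these genes fixes the place of TA cytoplasm 1, the array that shared its slide with the EDL and soleus cytoplasm. It had 11.19 for Col1a1 where the others spanned 12.54 to 13.26. Col4a6 and Col7a1 were higher in TA in both fractions.

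Genes with several probes did not always give 1 answer. Over the 3 muscles, the other probes of Col15a1 had 1.36 and 1.61 beside 0.62 for the chosen one, and those of Col18a1 and Col8a2 had 1.94 and 0.74 beside 1.50 and 1.48, all higher in nuclei. Col16a1 probes ran from 0.22 to 1.93 around 0.86 for the chosen probe. Col20a1 was split, with a chosen probe lower in nuclei (-0.43) and another higher (0.45), both past the threshold. Col4a4 had -0.52 for the chosen probe, -1.10 for the second and 0.38 for the third, which was not called. Col23a1 passed on a probe that was not chosen (-0.79) and not on the chosen one (-0.15). For Col25a1 the tested probes agreed in sign (-1.14 and -0.50), and for Col9a1 the second probe did not pass (-0.39 beside -1.37). The second probes of Col6a4 and Col19a1 and the remaining Col25a1 probes were not well above background on any array. The Col6a4 and Col19a1 results thus rest on 1 probe each. The chosen Col19a1 probe was annotated to a cDNA clone, whereas its dim second probe was annotated to the RefSeq mRNA. On mm9 the Col14a1 probes lay at chr15:55352264-55352323 (1.86) and chr15:55347733-55347792 (-0.08), and the Col20a1 probes at chr2:180752070-180752129 (-0.43) and chr2:180750502-180750561 (0.45).

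**Figure D5:**
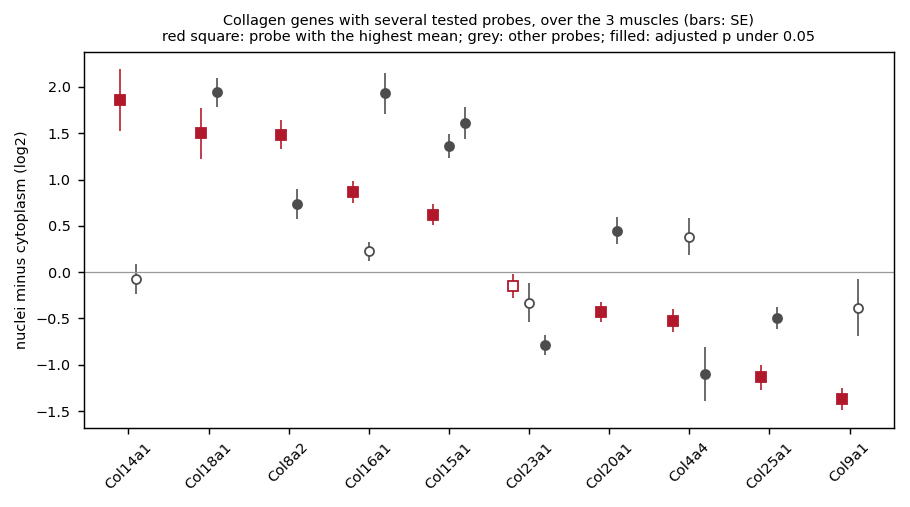
Difference between nuclei and cytoplasm over the 3 muscles (log2, nuclei minus cytoplasm) for each probe of the collagen genes with several tested probes, with red squares for the probe with the highest mean, grey circles for the others, filled symbols for an adjusted p under 0.05 and bars for the SE. Probes of Col15a1 lie on the same side of 0, and those of Col20a1 lie on opposite sides.

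Genes that make, bind and break down collagen are given over the 3 muscles, where 39.3% of mRNA genes were higher in nuclei and 29.2% lower. Of the tested genes of collagen synthesis and processing, 22 of 29 were higher in nuclei and 1 was lower, with a median of 0.74 beside 0.19 over mRNA genes. Loxl2 and Loxl3, lysyl oxidases that crosslink collagen, were higher by 1.61 each, and P4ha3, a prolyl hydroxylase chain, was lower (-0.75, and 0.0067 without scaling). Among partners of the matrix, 19 of 22 were higher and none was lower, with a median of 1.01, among them Tnxb (2.37), which codes for tenascin X, and Thbs4 (2.31), a thrombospondin of tendon and muscle. Of 9 receptor genes 7 were higher and 2 lower, with Mrc2 (2.03), an endocytic collagen receptor, and Itga1 (1.50), an integrin chain, on one side and Lair1 (-0.94) and Gp6 (-1.67), collagen receptors of leukocytes and platelets, on the other. For degradation the count was 6 higher and 3 lower of 11, with Mmp14 (2.13) and Ctsk (1.84) higher and Timp4 (-0.92) and Mmp8 (-2.30) lower. The genes named were those with the largest called differences of each list. Mmp8 was well above background on 8 cytoplasmic and 0 nuclear arrays, and Loxl3 on 1 and 7. The size of their differences thus rests on signal near background. Without scaling Lair1 (-0.38) and Timp4 (-0.13) were not called.

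Markers of other cell types were present in both fractions, and 12 of 12 myofiber markers were well above background on all arrays. The summed signal of the 12 fibroblast markers was 12630 to 15170 in EDL cytoplasm and 22420 to 24570 in EDL nuclei, 13100 to 18050 and 17950 to 18490 in soleus, and 7885 to 8639 and 15300 to 15630 in TA. Such a sum mostly follows its brightest markers. Marker by marker, the soleus median difference was -0.0021 (log2, nuclei minus cytoplasm), with 3 higher and 1 lower. The TA median was 0.90, with 9 higher and 1 lower, and the EDL median 0.13, with 3 higher and 1 lower. Over mRNA genes the medians were 0.17 for soleus, 0.14 for TA and 0.17 for EDL. For all 12 fibroblast markers the nuclear arrays were well above background, and over the 3 muscles 6 were higher in nuclei and 1 was lower. The shares over mRNA genes were 39.3% higher and 29.2% lower, and they stand beside the lists that follow too. The sum of 5 tenocyte markers was 1684 to 2376 in EDL cytoplasm and 10600 to 11880 in EDL nuclei, 4346 to 7919 and 14510 to 15740 in soleus, and 801.5 to 2653 and 2205 to 2535 in TA. All 11 endothelial markers were higher in nuclei over the 3 muscles, and their sum went from 3150 to 5761 in TA cytoplasm to 12980 to 15450 in TA nuclei, from 6152 to 6721 up to 10860 to 11620 in EDL, and from 5887 to 10800 to 10130 to 10660 in soleus. The sum of 8 mural markers was 1416 in TA cytoplasm 1 and 11110 to 14890 in the other TA cytoplasm samples. Of the TA cytoplasm samples, TA cytoplasm 1 had the lowest Col1a2 and Col18a1 and the highest Col1a1, Col5a2, Col22a1 and Col8a2. The sum of 8 Schwann cell markers was 1406 to 1427 in EDL cytoplasm and 3988 to 4123 in EDL nuclei, 1339 to 1870 and 2296 to 2414 in soleus, and 744.8 to 842.9 and 1537 to 1702 in TA. Macrophage markers went the other way, with 6 of 8 lower in nuclei over the 3 muscles and a median of -0.50, whereas 10 of 12 myofiber markers were higher, with a median of 0.89. The sum of 6 satellite cell markers was 142.7 in TA cytoplasm 1, 3152 to 5799 on the other TA arrays and 126.5 to 319.3 in EDL and soleus. Several of these lists had higher signal in nuclei, as did many collagens. Their part in the collagen differences was not tested.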

How the data were processed

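Total RNA of the nuclear and cytoplasmic fraction of myofiber pools was measured on 18 1-colour arrays, in 6 groups of 3 that follow the labels. Per the file headers, the deposited scanner files hold a background-corrected intensity per spot from Agilent Feature Extraction 10.7.3.1, with no scaling between arrays. The values deposited for the whole series covered 3687 features and none of the collagen spots, and were not used. The intensity was taken to log2, spots without positive and significant signal or with an outlier flag were set to missing, and arrays were quantile-normalized. Spots of a probe were averaged.

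The 6 groups each had a mean in 1 linear model (limma 3.58.1, R 4.3.3, 12 residual degrees of freedom), with p-values adjusted by Benjamini-Hochberg over all probes tested in a comparison and a threshold of 0.05. A probe was tested where at least 2 of 3 arrays of each group had a value. The interaction of muscle and fraction was an F test. Folds are printed where 1 group was not well above background. They follow the fitted difference with the dim probe's own signal, and for Col8a1 in TA the arrays with signal. They are not lower bounds. Positions of probes are those of the array design (mm9). Whether a probe lies in an exon or an untranslated part was not analysed here. Promoter windows came from RefSeq (GRCm38.p6). Figures were drawn with Python 3.11.15 and matplotlib 3.10.9. Signal is positive and significant on 78.9% to 89.3% of the spots of an array, and the number of arrays limits the precision.

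The members and the gene lists were chosen with earlier results of these data known. Values are given for each collagen past the threshold in a fraction comparison and for a fixed list of main chains, per array for the main chains and the 3 largest called differences in each direction. For lists of other genes the 2 largest in each direction over the muscles are named. The labels pair EDL and soleus samples by mice. Deviations of same-numbered samples correlated with r from -0.11 to 0.13 over 35528 probes. Alternatives were another background correction, scaling, filters, the replicate number or the slide as a block, the nuclear arrays as 1 sample, every probe counted, and each array left out. The procedure was tested on simulated data.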

Additional observations from a re-analysis of the deposited data

Results flagged for a closer look

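Col2a1, the cartilage collagen chain, passed the test of muscle by fraction interaction (adjusted p by limma 0.0282). Its difference between nuclei and cytoplasm was 2.76 in EDL and 1.88 in soleus on the log2 scale. In TA the probe was not well above background on any array, so the TA term cannot show how large a difference was there. The call was lost with the slide as a random block (adjusted p 0.204), with the nuclear arrays as 1 sample, and on leaving out any EDL or soleus nuclear array (adjusted p 0.0566 to 0.0654). Over all alternatives that tested it, the adjusted p ranged from 0.00129 to 1.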

How the results depend on the processing

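Values are log2 differences of class medians unless they are called counts of collagen genes, and the cause of a change was not tested. Under settings other than leaving out arrays, only class medians that moved by at least their SD between replicate arrays are listed. That SD was 0.53 for fibrillar, 0.16 for basement membrane and 0.23 for other genes, so smaller shifts are not shown. Leaving out each array in turn gave counts of 19 to 23 in EDL, 13 to 22 in soleus, 16 to 23 in TA, 24 to 29 over the 3 muscles, 0 to 5 for the interaction, and 0 to 3 and 0 to 6 for soleus minus EDL in nuclei and cytoplasm. The soleus count of 22 was reached without soleus cytoplasm 2 and that of 13 without soleus cytoplasm 3. Medians moved most in soleus basement membrane genes (-0.14 to 0.34) and in TA fibrillar (0.25 to 1.04), basement membrane (0.12 to 0.73) and other genes (-0.66 to -0.26), and basement membrane genes in cytoplasmic soleus minus EDL had 0.040 to 0.22. With the replicate block the counts were 19, 18, 22 and 28 for the fraction comparisons, 1 for the interaction, and 1 and 2 for soleus minus EDL, the same as without it. The replicate number follows the mice in EDL and soleus and only in part in TA. There the fractions share a mouse at numbers 1 and 2 but not at number 3. An effect of the pairing by mice was therefore not fully tested by this block.

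With the slide as a random block the counts were 6 in EDL, 2 in soleus, 16 over the muscles and 0 for the interaction, and the medians were 0.24 for EDL basement membrane genes and 0.0053 and 0.80 for soleus basement membrane and other genes. With the nuclear arrays as 1 sample they were 2, 0, 2 and 16 for the fraction comparisons, 0 for the interaction and 0 for cytoplasmic soleus minus EDL, where the lone sample was assumed to vary like the other groups. For these counts of 0, limma gave 8 soleus collagens, 1 by the interaction and 7 in cytoplasm at an unadjusted p under 0.05, and 6 by the interaction under the slide block. Without scaling the soleus count was 31, the interaction count 15, and those of soleus minus EDL 3 in nuclei and 0 in cytoplasm, where 11 had an unadjusted p under 0.05 by limma. The fibrillar, basement membrane and other medians then were 1.53, 1.13 and 0.67 in EDL and 1.63, 1.33 and 1.43 in soleus, and basement membrane genes had 0.44 in TA. Over the muscles basement membrane and other genes had 1.33 and 0.61, and in soleus minus EDL they had 0.27 and 0.56 in nuclei and -0.033 and -0.027 in cytoplasm. Scaling to the 75th percentile gave 0.61 for EDL basement membrane genes, 2 calls for the interaction and 4 for cytoplasmic soleus minus EDL. The normexp correction gave -0.16 for other TA genes, 0.070 for other genes in cytoplasmic soleus minus EDL, 3 calls for the interaction and 2 for nuclear soleus minus EDL.

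TA basement membrane genes had 0.85 where spots well above background were required, 0.72 with no filter, 0.88 with values on 3 of 3 arrays and 0.69 with every probe counted, and other TA genes had 0.012 with no filter. On slide 4 alone the TA medians were 0.15 for fibrillar, -0.037 for basement membrane and -0.71 for other genes. The type IV chains alone had -0.22 in EDL, -0.26 in soleus, -0.37 in TA, -0.25 over the muscles and -0.075 in cytoplasmic soleus minus EDL. The interaction gave 3 calls where spots well above background were required, 2 with no filter, 0 with values on 3 of 3 arrays (8 at an unadjusted p under 0.05 by limma), 2 with a trended prior and 3 with every probe counted. The stricter background filter gave 2 calls in nuclear soleus minus EDL, the trended prior 4 in cytoplasm, and every probe counted a median of 0.045 for other genes in cytoplasm.

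Among single genes, Col13a1 turned sign in EDL under normexp (0.020), no scaling (0.16), no filter (0.13) and without EDL cytoplasm 1 (0.16) or EDL nuclei 3 (0.10), with the lowest value without EDL cytoplasm 3 (-0.23), and in soleus under normexp (0.018) and no scaling (0.67). Col4a1 in soleus turned to -0.14 without soleus cytoplasm 3. Without scaling Col9a1 (0.16) and Col25a1 (0.31) turned in soleus, and Col4a4 (0.19), Col4a6 (0.26), Col20a1 (0.25) and P4ha3 (0.0067) over the muscles. Signal over background limited Col24a1, Col17a1 and Col9a3, which were not well above background on any array.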
